A study of Ovis aries with 95 samples.

Results

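Receptors are the proteins through which a brain cell reads hormones, transmitters, growth factors and immune signals. Nuclear receptors bind steroids, thyroid hormone and related small molecules inside the cell and act on transcription, whereas most receptors for peptides and transmitters sit in the cell membrane and couple to G proteins, open an ion channel or carry a kinase. In the sheep fetus, rising cortisol near term prepares organs for birth, and glutamate receptors, neuropeptide receptors and the receptors of microglia, the resident macrophages of the brain, are all acquired while the brain is still growing.

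The genes described here are those whose annotation on an ovine oligonucleotide array contains the word receptor. T cell receptor genes were left out, as were EPOR, FCGR1A, FCGR2B and ACVR1. The word occurred for 188 gene names, of which 42 were T cell receptor entries, and after the 4 other exclusions 142 of the 14351 gene names on the array remained, read by 222 probes. For 131 of them the gene product is itself a receptor or a receptor subunit, and the remaining 11 are partners such as coactivators or a receptor transporter. By role, 34 were receptors for peptide and protein hormones, 27 for transmitters and local mediators, 24 for immune signals and cytokines and 18 were growth factor receptor kinases. A further 14 were grouped as nuclear hormone receptors, 12 were uptake and adhesion receptors and 13 were partners, channels and others. The nuclear group includes both entries of AHR, a ligand-activated transcription factor that is not of the nuclear receptor family. Entries of one gene under several array names were kept apart, so the insulin-like growth factor 1 receptor counts 3 times.

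RNA came from frontal cortex, brainstem, hippocampus and hypothalamus of untreated sheep fetuses, and from lambs on day 1 after birth (called newborn here). Fetal groups are labeled 80, 100, 120, 130 or 145 d of gestation. Per the study's methods, the 100 d group was collected over several days up to 100 d and the 145 d group slightly before 145 d. Groups held 4 arrays apiece, or 3 for hippocampus at 100 d, for a sum of 95 one-colour arrays, each hybridized with 1 sample. All groups were untreated and the ewes were not in labor. Every group held 1 pair of twins, which the labels do not mark. Per the study's methods the 4 regions of an age came from the same 4 animals, but the labels do not tie arrays to animals. The arrays were treated as independent, so the p-values measure the spread between these samples, and those between regions take no account of shared animals. The tissue was taken as a whole, and fewer cells of a type and less RNA per cell cannot be told apart.

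Levels are log2 intensities after background correction and quantile normalization, averaged over the probes of a gene. They are compared between ages and regions for one gene, never between genes. On an array, 59.5 to 88.5% of gene probes were well above background, with medians of 78.8% (cortex), 80.4% (brainstem), 76.2% (hippocampus) and 81.4% (hypothalamus). The brainstem newborn array of replicate 4 has a dim area that holds 2586 probes, among them 50 probes of 46 receptor genes, with a median difference of -1.21 from the other newborn arrays inside the area and 0.34 outside it. Brainstem counts over all receptor genes and named changes across birth, which use this array, are given with and without it or its dim area, and counts by role or list with it. Shares of all genes were computed in the main setting only, with this array and its dim area included. As a check of the dissection labels, OXT, the gene of the hypothalamic hormone oxytocin, had a mean of 11.01 at 145 d in hypothalamus, beside 7.90 in cortex, 8.94 in brainstem and 8.71 in hippocampus. The log2 of the summed intensities of 2 choroid plexus markers, however, ran from 6.60 to 18.32 over brainstem arrays at 80 d. In hippocampus it ran from 11.48 to 18.01 in newborns and from 12.19 to 13.31 at 100 d. The part of choroid plexus in the receptor levels was not tested. Slides held samples of 1 region each, so that differences between regions and between slides cannot be told apart.

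The probes are 60 bases long with a median G and C content of 45%, and no probe shares 15 or more bases with a probe of another receptor gene here. The following sequences are those deposited with the array, 5′ to 3′, for the receptors on which most of the comparisons below turn. Capitals mark a run that is shared with another probe of the same gene.
SSTR2, somatostatin receptor 2, with the widest spread between regions: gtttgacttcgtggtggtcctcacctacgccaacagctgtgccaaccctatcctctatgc
MGLUR3, metabotropic glutamate receptor 3: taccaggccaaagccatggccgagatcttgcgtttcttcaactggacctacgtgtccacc
GRIA1, AMPA receptor subunit 1, first probe: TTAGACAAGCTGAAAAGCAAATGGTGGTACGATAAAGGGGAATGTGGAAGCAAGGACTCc
GRIA1, second probe: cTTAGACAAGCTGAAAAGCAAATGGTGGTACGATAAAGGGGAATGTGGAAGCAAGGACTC
GRIA2, AMPA receptor subunit 2: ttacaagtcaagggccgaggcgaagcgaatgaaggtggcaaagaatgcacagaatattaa
GRIA3, AMPA receptor subunit 3: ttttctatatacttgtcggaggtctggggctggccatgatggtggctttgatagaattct
GRIA4, AMPA receptor subunit 4, first probe: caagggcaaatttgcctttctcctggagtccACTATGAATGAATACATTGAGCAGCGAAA
GRIA4, second probe: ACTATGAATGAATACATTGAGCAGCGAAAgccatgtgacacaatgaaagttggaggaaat
NR3C1, the glucocorticoid receptor: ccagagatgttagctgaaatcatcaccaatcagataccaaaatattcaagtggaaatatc
PGR, the progesterone receptor: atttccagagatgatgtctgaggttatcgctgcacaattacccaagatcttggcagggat
EP1 receptor for prostaglandin E2, first probe: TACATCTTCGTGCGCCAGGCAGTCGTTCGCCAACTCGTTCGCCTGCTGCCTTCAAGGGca
EP1 receptor, second probe: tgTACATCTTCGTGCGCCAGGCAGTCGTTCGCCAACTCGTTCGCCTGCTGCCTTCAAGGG
ADORA3, the adenosine A3 receptor, which has 5 spots on each array: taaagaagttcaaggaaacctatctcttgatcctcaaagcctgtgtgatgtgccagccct
T19 (S76323), a scavenger receptor homolog: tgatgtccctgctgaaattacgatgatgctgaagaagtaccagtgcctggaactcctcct
T19 (NP13107344), a related entry: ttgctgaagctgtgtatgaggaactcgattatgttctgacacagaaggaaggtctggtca
The pair for GRIA1 shares a run of 59 bases and the pair for the EP1 receptor 58, so each pair measures nearly the same stretch and is no independent check of its gene. The GRIA4 probes overlap by 29 bases. The T19 entries share no such run, and they can be read as separate measurements.

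Of the 142 receptor genes, 134 passed the filter on dim signals in at least 1 region and 124 passed it in all 4. The 8 that passed it nowhere were CCR9, GHSR, GPR50, GNRHR, MS4A2, the ACTH receptor MC2R, a prostaglandin EP2 receptor entry (LOC443013) and a melanocortin receptor that the array names MC1R and RefSeq lists as MC5R. GPR50, MC2R and LOC443013 were well above background on none of the 95 arrays. At the other end, 46 genes were well above background on every array.

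Whether a receptor gene changed with age was asked in each region with an F test that set the 5 later ages against 80 d (limma, Benjamini-Hochberg adjusted p under 0.05 over all genes of the region). In cortex 52 of 131 tested receptor genes passed (39.7%), beside 45.8% of all genes tested. In brainstem 30 of 128 passed (23.4%), beside 40.6% of all genes. The count in brainstem was 37 with the dim area left out and 43 without that array, and the share of all genes was not computed in either case. In hippocampus 1 of 128 passed (0.781%, beside 3.08%), and in hypothalamus 16 of 130 (12.3%, beside 16%). With all arrays and the dim area included, the receptor share was below that of all genes in each of the 4 regions. Of the 134 tested in any region, 72 changed somewhere (53.7%, beside 61% of all genes). Of these, 50 changed in 1 region (37.3%, beside 31.7%), 17 in 2 (12.7%, beside 19.8%), 5 in 3 (3.73%, beside 7.58%) and none in all 4 (beside 1.89%).

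Uptake and adhesion receptors had the highest share of changed genes in cortex, 9 of 12 (75%, beside 45.8% of all genes), and in brainstem, 5 of 12 (41.7%, near the 40.6% of all genes). Growth factor receptor kinases followed in both, with 10 of 18 (55.6%) and 6 of 17 (35.3%), the second below the share of all genes. Peptide and protein hormone receptors changed least in these regions, 6 of 28 in cortex and 3 of 27 in brainstem. In hypothalamus the immune and cytokine receptors had the highest share, 5 of 20 (25%), with the transmitter and local mediator receptors next at 5 of 25 (20%), beside 16% of all genes. These are counts of small groups, and no test compared the roles.

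**Figure D1:**
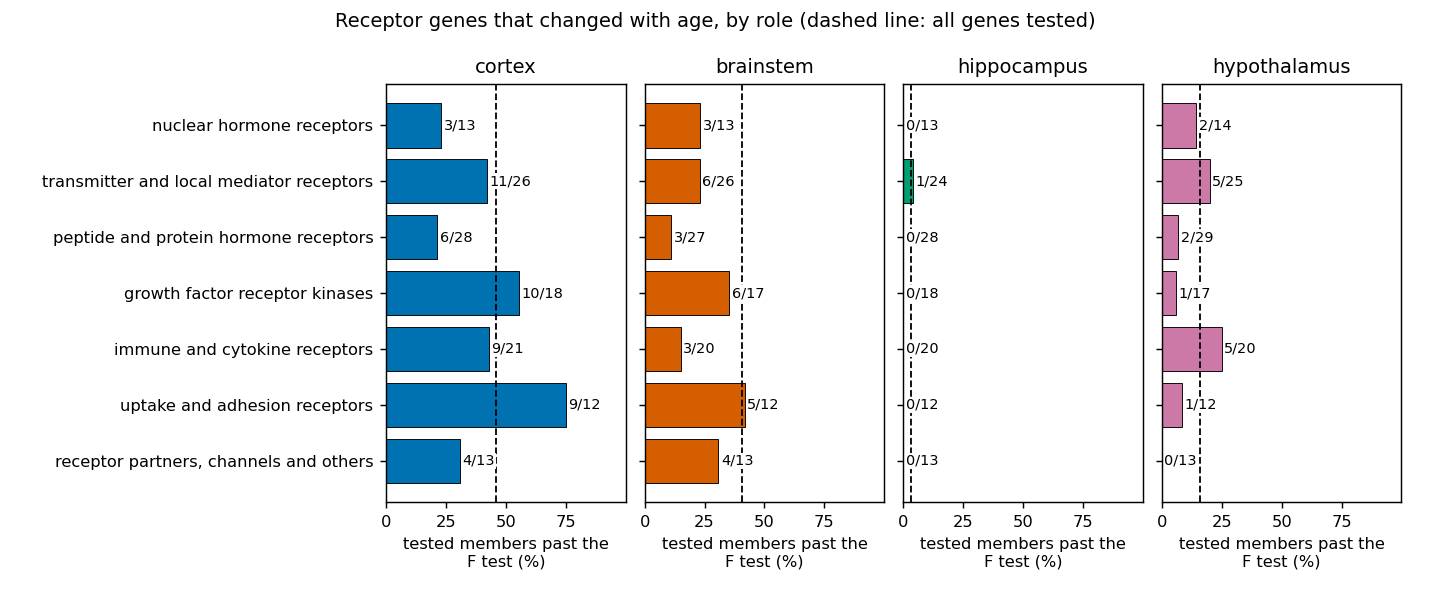
Percent of the tested receptor genes of each role that passed the F test across ages, by region, with the share of all genes tested as a dashed line. In cortex the uptake and adhesion receptors (9 of 12) and growth factor receptor kinases (10 of 18) lie above the 45.8% of all genes, and in hippocampus only 1 gene passed.

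From 80 d to 145 d, 27 receptor genes were higher and 21 lower in cortex, where 18.7% of all genes were higher and 22.7% lower. In brainstem 17 were higher (all genes 17%) and 15 lower (all genes 20.5%), a count of 32 that was 34 with the dim area left out and 39 without that array. In hypothalamus 7 were higher (all genes 5.68%) and 8 lower (all genes 8.51%). In hippocampus none was higher (all genes 2.11%) and 2 were lower (all genes 2.42%). The median change over the tested receptor genes was 0.06 for cortex, 0.03 for brainstem, 0.00 for hippocampus and -0.02 for hypothalamus on the log2 scale, beside medians over all genes of -0.02, 0.01, 0.00 and -0.02. Receptor genes as a set thus did not move one way.

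**Figure D2:**
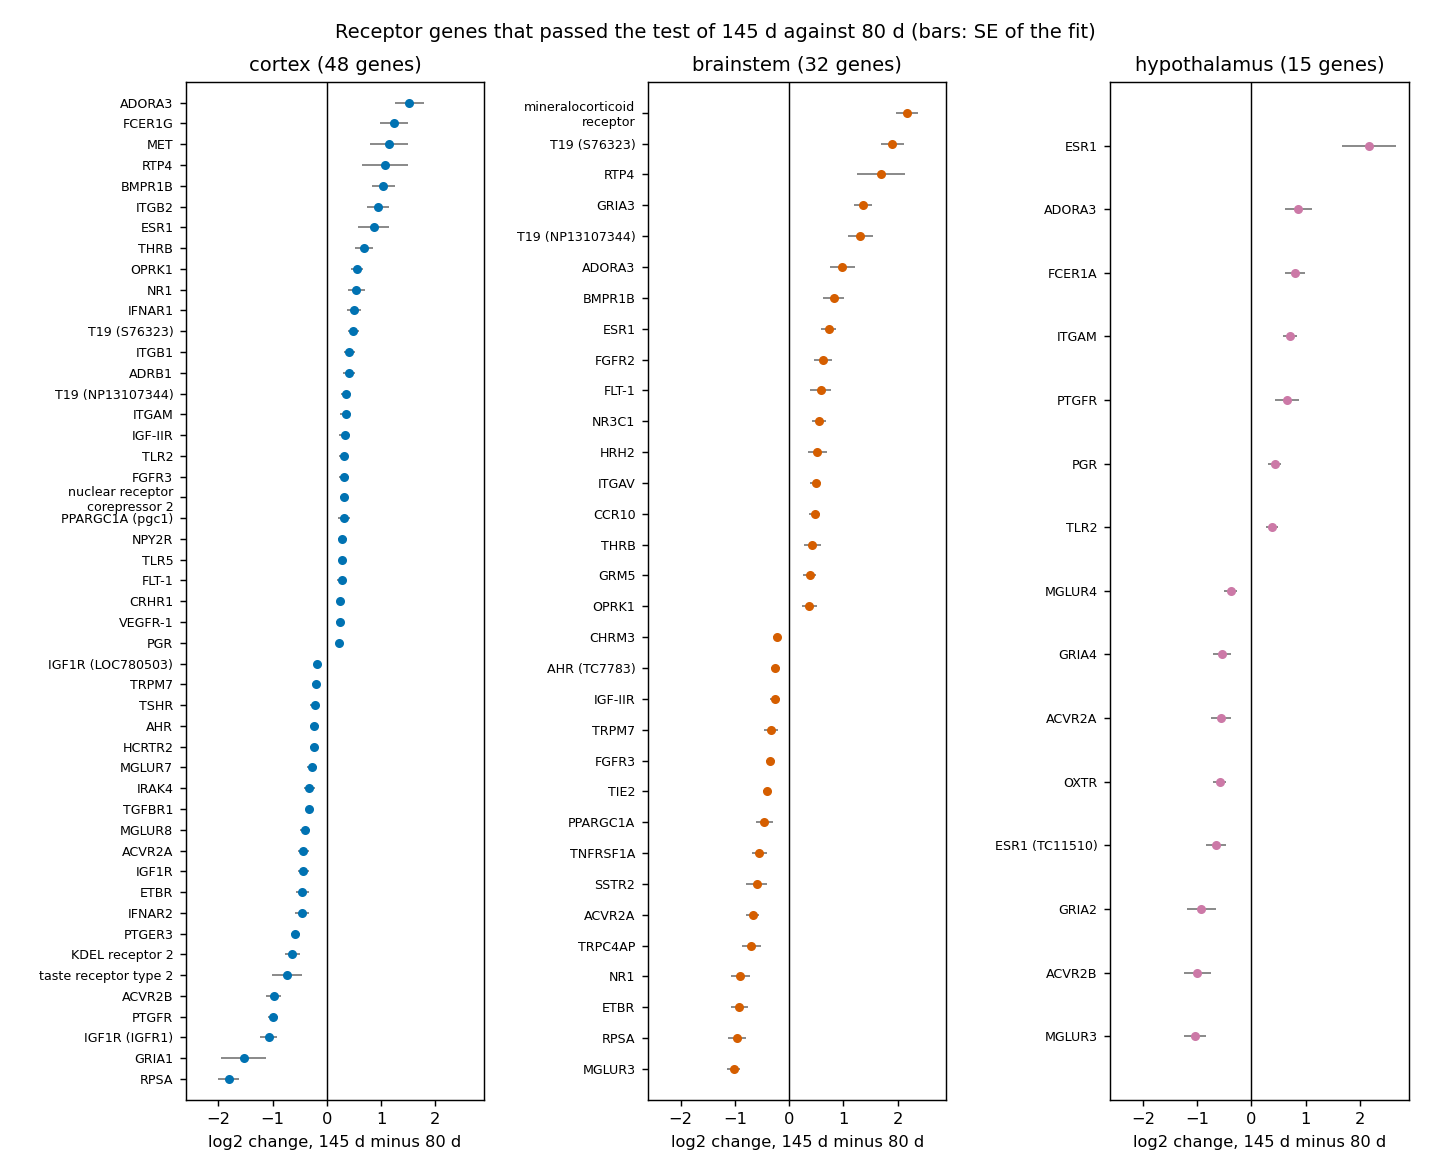
Log2 change from 80 d to 145 d with its standard error for each receptor gene whose change passed limma's test, by region, for the 48 genes of cortex, 32 of brainstem and 15 of hypothalamus. ADORA3 has the largest rise in cortex (1.52), the mineralocorticoid receptor in brainstem (2.18) and ESR1 in hypothalamus (2.17).

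Among the nuclear hormone receptors, the corticosteroid receptors rose in brainstem before birth and were lower after it. The mineralocorticoid receptor binds cortisol and aldosterone with high affinity. Its 4 brainstem arrays read 9.14, 9.22, 9.04 and 9.08 at 80 d, 11.21, 11.30, 11.17 and 11.52 at 145 d, and 10.63, 9.996, 10.30 and 10.56 in newborns. The 3 ages do not overlap, with newborns in between. The rise to 145 d was 2.18 (SE 0.21, 4.53-fold, limma adjusted p = 7.9e-08), and its probes gave 2.29 and 2.07. The fall across birth was 1.90-fold, a change of -0.93 (SE 0.21, adjusted p = 0.016), which missed the threshold at 0.055 without the 145 d array of replicate 4. In cortex the change to 145 d was 0.33 (adjusted p = 0.37). In hippocampus, the region with its highest mean, it was 1.61 (adjusted p = 0.18), where 80 d arrays ran from 10.50 to 11.85 and 145 d arrays from 11.27 to 13.46. In hypothalamus it was 1.17 (adjusted p = 0.32), with a change across birth of -1.12 (adjusted p = 0.4), and the arrays of the 3 ages overlap.

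NR3C1, the glucocorticoid receptor, binds cortisol at the higher levels reached near term. In brainstem it read 6.76, 6.83, 6.94 and 6.75 at 80 d, 7.28, 7.39, 7.53 and 7.28 at 145 d, and 7.04, 7.0, 6.79 and 6.29 in newborns. All 145 d arrays lie above those of both other ages. The rise was 0.55 (SE 0.12, 1.46-fold, limma adjusted p = 0.0015) and the change across birth -0.59 (SE 0.12, adjusted p = 0.012). The lowest newborn value is from the array with the dim area, which holds the NR3C1 probe. With the area left out the change across birth was -0.43 (adjusted p = 0.015). In the other 3 regions the changes to 145 d were 0.08, 0.27 and 0.23 and did not pass. HSD11B1, which regenerates cortisol from cortisone inside cells and is no receptor, was lower at 145 d in cortex (-0.49), brainstem (-0.92) and hippocampus (-1.47). HSD11B2, which inactivates cortisol, was also lower at 145 d in brainstem (-0.92, adjusted p = 0.0052).

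ESR1, the estrogen receptor alpha, was higher at 145 d in 3 regions. In hypothalamus it read 6.76, 8.68, 8.47 and 7.32 at 80 d, 9.81, 10.23, 9.96 and 9.88 at 145 d, and 9.54, 9.59, 9.42 and 9.22 in newborns. Every later array named here lies above every 80 d array, among which the values spread widely. The change to 145 d was 2.17 (SE 0.50, 4.49-fold, limma adjusted p = 0.0051), and the F test across ages (adjusted p = 0.029) was lost in 5 of 24 fits that left out 1 array. In brainstem 6.96, 7.0, 7.03 and 6.76 at 80 d became 7.64, 7.67, 7.74 and 7.61 at 145 d, a change of 0.73 (SE 0.14, adjusted p = 0.00029) without overlap. In cortex 6.76, 7.23, 6.72 and 7.07 became 7.68, 7.19, 7.25 and 9.14, a change of 0.87 (SE 0.29, adjusted p = 0.018). The cortex groups overlap, and without the 145 d array of replicate 4, the one at 9.14, the change was 0.43 with an adjusted p of 0.066. The call in cortex was also lost without 80 d replicate 3.

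A second entry named for the estrogen receptor, TC11510, is a transcript contig matched in part to the bovine protein, and its probe holds no open reading frame over its length. It moved the other way in hypothalamus. Its arrays read 10.08, 9.87, 9.75 and 9.98 at 80 d and 9.56, 8.55, 9.45 and 9.50 at 145 d, a change of -0.65 (SE 0.19, limma adjusted p = 0.022) without overlap, lost without 145 d replicate 2 or 80 d replicate 1 or 4. The ESR1 entry and this contig measure different stretches, and whether both belong to one gene was not tested.

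Thyroid hormone receptor beta (THRB) mediates part of the action of T3 on the developing brain. In cortex it read 7.19, 8.21, 7.62 and 7.32 at 80 d and 8.10, 8.13, 8.56 and 8.28 at 145 d. One 80 d array reaches into the later range. The change was 0.68 (SE 0.16, limma adjusted p = 0.0015), and in brainstem it was 0.43 (adjusted p = 0.035), which was lost in 6 of 24 fits that left out 1 array. THRA, the alpha receptor, was well above background on only 3 arrays of cortex and 10 of hypothalamus, and it passed no test across ages.

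PGR, the progesterone receptor, was higher at 145 d in hypothalamus, with 6.84, 7.0, 6.96 and 6.96 at 80 d and 7.29, 7.46, 7.38 and 7.33 at 145 d. The groups do not overlap, and the change was 0.43 (SE 0.12, limma adjusted p = 0.023), lost without 145 d replicate 2 or 80 d replicate 1. In cortex no 80 d array was well above background, and the 145 d level was at least 1.1-fold higher (adjusted p = 0.0083). A second progesterone receptor entry (EU184862) passed no age test in any region, with changes to 145 d from -0.29 in hypothalamus to 0.17 in brainstem. AHR, which senses aromatic ligands, was lower in cortex (-0.23, adjusted p = 0.027), and its second entry (TC7783) in brainstem (-0.25, adjusted p = 0.034). These calls were lost in 4 and 5 of 24 fits that left out 1 array. ESR2, PPARG and PPAR alpha passed neither the change to 145 d nor the change across birth in any region where they were tested. The nearest to the threshold was PPAR alpha in hypothalamus, at 0.36 (adjusted p = 0.057).

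**Figure D3:**
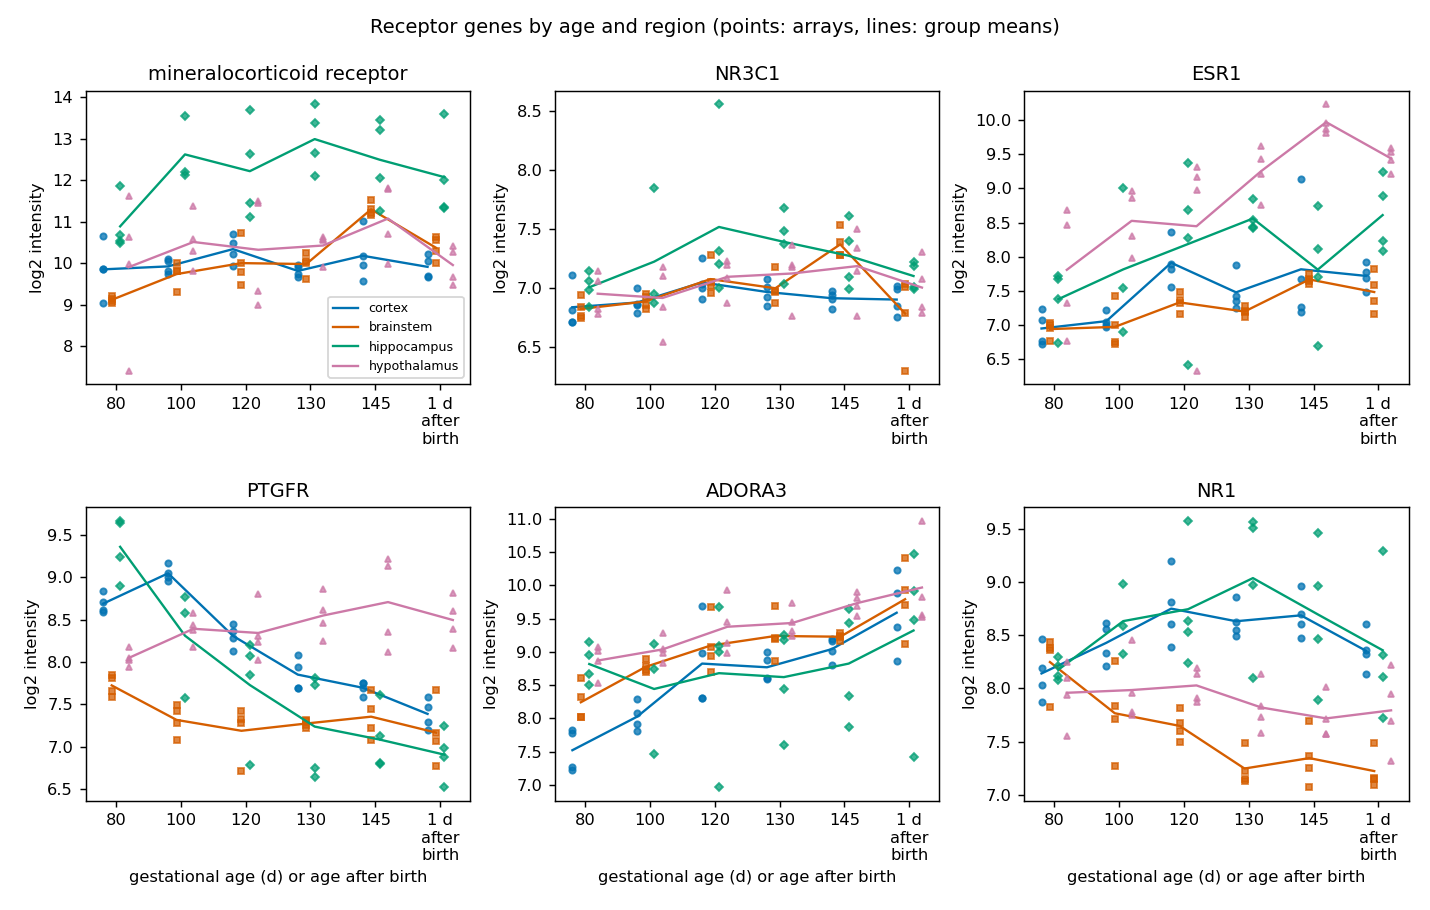
Log2 intensity of 6 receptor genes on each array (points) with group means (lines) against age in the 4 regions. The mineralocorticoid receptor rises in brainstem to a mean of 11.30 at 145 d and lies at 10.37 in newborns, and PTGFR falls in cortex and hippocampus.

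Among the receptors for transmitters and local mediators, PTGFR, the receptor for prostaglandin F2 alpha, fell in cortex and hippocampus and was higher in hypothalamus. In hippocampus it read 8.89, 9.23, 9.64 and 9.66 at 80 d, 6.81, 7.13, 7.61 and 6.80 at 145 d, and 6.88, 7.25, 6.52 and 6.98 in newborns. All late arrays lie far below the early ones. The change to 145 d was -2.27 (SE 0.35, 4.82-fold lower, limma adjusted p = 0.00036), and PTGFR was the only receptor gene of hippocampus to pass the F test. In cortex the means were 8.69 at 80 d, 9.04 at 100 d, 8.31 at 120 d, 7.85 at 130 d, 7.70 at 145 d and 7.39 in newborns. Its SDs there were 0.08 to 0.19, so that the fall after 100 d is larger than the spread at any age. The change to 145 d was -0.99 (SE 0.10, adjusted p = 4.7e-08). In hypothalamus 8.04, 8.03, 8.18 and 7.94 became 9.22, 9.14, 8.12 and 8.35, a change of 0.66 (SE 0.22, adjusted p = 0.047) with overlapping arrays. The change differed between regions (interaction F test, adjusted p = 1.4e-09), the lowest p of all receptor genes. PTGS2, an enzyme of prostaglandin synthesis, was higher at 145 d in cortex (2.03, adjusted p = 1.6e-08) and hippocampus (2.18, adjusted p = 0.002).

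Other prostaglandin receptors moved in single regions. PTGER3, the EP3 receptor for prostaglandin E2, read 8.24, 7.98, 8.32 and 8.16 at 80 d and 7.55, 7.72, 7.47 and 7.62 at 145 d in cortex, a fall without overlap of 0.58 on the log2 scale (limma adjusted p = 9.7e-06). The EP1 receptor was lower in newborn hypothalamus than at 145 d. Its arrays there read 9.63, 9.41, 9.15 and 9.25 at 80 d, 9.81, 9.60, 9.23 and 9.0 at 145 d, and 7.26, 7.29, 7.78 and 6.99 in newborns. The newborn arrays lie below all of these, by a change across birth of -2.08 (SE 0.51, 4.22-fold, adjusted p = 0.038). At 130 d, however, the 4 arrays read 7.25, 10.15, 7.33 and 8.14, a span that covers both levels, and single arrays of hippocampus reached 10.42 at 100 d and 10.34 in newborns beside others near 7.3. The change across birth missed the threshold in 7 of 24 fits that left out 1 array (adjusted p from 0.013 to 0.12).

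ADORA3, the adenosine A3 receptor, a G protein-coupled receptor found on immune cells among others, was higher at 145 d in cortex, brainstem and hypothalamus. In cortex it read 7.22, 7.82, 7.27 and 7.78 at 80 d, 8.81, 9.16, 9.19 and 9.01 at 145 d, and 8.87, 10.23, 9.89 and 9.37 in newborns. No later array overlaps those of 80 d. The changes to 145 d were 1.52 in cortex (SE 0.27, limma adjusted p = 9.7e-05), 0.98 in brainstem (SE 0.22, adjusted p = 0.0016) and 0.86 in hypothalamus (SE 0.25, adjusted p = 0.024). In hippocampus the change was 0.01. From 80 d to newborns the rise in cortex was 4.19-fold (adjusted p = 2e-06).

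Ionotropic glutamate receptors carry fast excitation, and their subunits moved in different directions. NR1 is the subunit that NMDA receptors require. In cortex it read 8.46, 8.04, 7.87 and 8.19 at 80 d and 8.96, 8.48, 8.70 and 8.60 at 145 d, higher by 0.55 (SE 0.16, limma adjusted p = 0.0072) without overlap. In brainstem it read 8.36, 8.43, 8.38 and 7.82 at 80 d and 7.36, 7.25, 7.69 and 7.07 at 145 d, lower by a change of -0.90 (SE 0.17, adjusted p = 0.00037), also without overlap. The interaction test gave adjusted p = 0.0035. The NMDA subunit was thus higher near term in cortex and lower in brainstem.

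AMPA receptor subunits GRIA1 to GRIA4 form the other main class. GRIA1 in cortex read 11.11, 10.63, 11.11 and 9.52 at 80 d and 9.73, 9.75, 7.89 and 8.86 at 145 d, a change of -1.53 (SE 0.41, limma adjusted p = 0.0047) in which one early array lies within the late range. GRIA3 rose in brainstem from 9.21, 9.18, 9.26 and 9.15 at 80 d to 10.25, 10.59, 10.74 and 10.68 at 145 d, and newborns read 10.05, 9.97, 10.04 and 9.56. The rise was 1.37 (SE 0.16, adjusted p = 1.5e-06) and the change across birth -0.66 (SE 0.16, adjusted p = 0.025), with no overlap in either step. GRIA4 was lower at 145 d in hypothalamus (-0.54, adjusted p = 0.034), where its arrays went from 8.09 to 8.76 at 80 d and from 7.76 to 8.06 at 145 d.

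GRIA2, the subunit that limits calcium entry through AMPA receptors, was lower at 145 d in hypothalamus and lower after birth in brainstem. In hypothalamus 3 arrays had a value at 80 d, since the spot of the other was marked as an outlier, and they read 13.38, 13.02 and 12.99. At 145 d the 4 arrays read 11.83, 12.43, 12.27 and 12.30 and in newborns 12.06, 11.41, 11.38 and 11.45, all below the early ones. The change to newborns was -1.55 (SE 0.27, limma adjusted p = 0.00039), but the authors' series table gave -0.73. The F test across ages had an adjusted p of 0.0018, and 0.43 with that table. In brainstem 145 d arrays of 10.66, 10.81, 10.50 and 10.88 were followed by 10.18, 10.19, 10.50 and 9.98 in newborns, a change of -0.50 (SE 0.13, adjusted p = 0.033) with the highest newborn array just under the lowest of 145 d.

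Metabotropic glutamate receptors couple to G proteins and tune synaptic release and excitability. MGLUR3 fell in brainstem from 7.64, 7.63, 7.76 and 7.59 at 80 d to 6.59, 6.59, 6.70 and 6.64 at 145 d, where 1 of 4 arrays was well above background. The groups lie far apart, with a change of -1.02 (SE 0.12, limma adjusted p = 1.2e-06). In hypothalamus it fell from 8.93, 8.10, 7.96 and 8.22 to 6.94, 7.44, 7.43 and 7.23, a change of -1.04 (SE 0.21, adjusted p = 0.0016), again without overlap. GRM5 was higher at 145 d in brainstem (0.38, adjusted p = 0.014) and lower after birth, where 7.45, 7.97, 7.68 and 7.95 were followed by 7.36, 7.02, 7.15 and 7.45, a change of -0.52 (SE 0.12, adjusted p = 0.016) with ranges that meet. MGLUR7 and MGLUR8 were lower at 145 d in cortex (-0.28 and -0.40) and MGLUR4 in hypothalamus (-0.38). EAAT2, an astrocyte transporter that clears glutamate and is no receptor, was higher at 145 d in all 4 regions, by 2.16 (cortex), 1.37 (brainstem), 1.92 (hippocampus) and 1.35 (hypothalamus) on the log2 scale. Among amine receptors, the beta-1 adrenergic receptor ADRB1 was higher in cortex (0.41) and the histamine receptor HRH2 in brainstem (0.52, adjusted p = 0.023), and the muscarinic receptor CHRM3 was at least 1.13-fold lower in brainstem (adjusted p = 0.021), where no 145 d array was well above background.

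Of 18 growth factor receptor kinases tested in cortex, 5 were higher and 6 lower at 145 d, beside 18.7% and 22.7% of all genes. Of 17 in brainstem, 3 were higher and 3 lower, beside 17% and 20.5% of all genes. ACVR2B and ACVR2A, type II receptors for activins, and the entries of IGF1R were among the lower ones. ACVR2B in cortex read 9.50, 9.73, 9.59 and 9.50 at 80 d, 8.62, 8.61, 8.77 and 8.39 at 145 d, and 8.52, 8.31, 8.19 and 8.01 in newborns, falling by 0.98 on the log2 scale to 145 d (SE 0.13, limma adjusted p = 3e-06) without overlap. In hypothalamus it fell from 10.07, 10.12, 9.48 and 9.84 to 8.71, 9.14, 8.64 and 9.03, a change of -1.0 (SE 0.25, adjusted p = 0.0096), also without overlap. ACVR2A was the only receptor gene lower at 145 d in 3 regions, by -0.43 in cortex, -0.67 in brainstem and -0.56 in hypothalamus (adjusted p = 0.001, 0.00014 and 0.044). In brainstem its 80 d arrays of 8.06, 8.30, 8.10 and 8.09 lie above those of 145 d at 7.51, 7.55, 7.35 and 7.45. ACVR1B, a type I activin receptor, passed in no region. Its changes to 145 d lay between -0.06 and 0.06 in cortex, hippocampus and hypothalamus, and no 145 d array of brainstem was well above background. INHBA, which encodes the activin A subunit, was itself lower at 145 d in cortex (-1.96) and higher in brainstem (1.46).

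IGF1R, the kinase receptor for insulin-like growth factors, has 3 entries, and all were lower at 145 d in cortex. The entry IGFR1 read 8.73, 8.61, 8.75 and 8.48 at 80 d and 7.67, 7.41, 7.64 and 7.57 at 145 d, a change of -1.07 (SE 0.16, limma adjusted p = 1.2e-05). The other entries changed by -0.43 and -0.18, so that the direction was shared and the size was not. IGF-IIR, which binds insulin-like growth factor 2 and carries it to lysosomes, was higher in cortex (0.33) and lower in brainstem (-0.26). Its ligand gene IGF2 also went up in cortex (2.11, adjusted p = 7e-04) and down in brainstem (-1.27, adjusted p = 0.044).

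The other kinase receptors moved in both directions, and TGFBR1, a type I receptor for transforming growth factor beta, was lower in cortex (-0.32, limma adjusted p = 0.00021). MET, the receptor for hepatocyte growth factor, read 7.45, 7.49, 7.20 and 7.58 at 80 d in cortex and 8.63, 8.45, 8.81 and 8.39 at 145 d, higher by 1.14 (SE 0.35, limma adjusted p = 0.011) without overlap, while in hippocampus its change was -1.14 (adjusted p = 0.16). The difference between regions passed (interaction adjusted p = 0.00048). BMPR1B, a bone morphogenetic protein receptor, was higher in cortex (9.96, 10.85, 9.88 and 10.72 at 80 d, 11.51, 11.12, 11.82 and 11.12 at 145 d, a change of 1.04, SE 0.22, adjusted p = 0.00047) and in brainstem (0.82, adjusted p = 0.0017). FGFR3, a fibroblast growth factor receptor, was at least 1.22-fold higher in cortex, where no 80 d array was well above background, and lower in brainstem (-0.34, adjusted p = 0.0039). FGFR2 was higher in brainstem (0.62, adjusted p = 0.0048). Of the vascular receptors, FLT-1 was at least 1.21-fold higher in cortex and higher by 0.58 in brainstem. A second entry of the same receptor, VEGFR-1, changed by 0.24 in cortex (adjusted p = 0.014) and gave 0.14 in brainstem (adjusted p = 0.32). KDR, the main signalling receptor for vascular endothelial growth factor, passed the F test across ages in cortex and brainstem (adjusted p = 0.022 and 0.024), while its change to 145 d was -0.16 in cortex (adjusted p = 0.086) and 0.03 in brainstem (adjusted p = 0.83). Another array entry of KDR, not among the receptor genes here, was lower at 145 d in brainstem (-0.31, adjusted p = 0.02). The 11 listed endothelial markers, FLT1 included, matched 7 array entries, among them both entries of KDR named above. The sums of these entries in cortex ran from 11.26 to 11.49 at 80 d and from 11.83 to 11.91 at 145 d. In brainstem they ran from 11.56 to 11.82 and from 11.75 to 11.98, and their part was not tested. TIE2, the angiopoietin receptor, was lower in brainstem (-0.41, adjusted p = 0.00049).

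In cortex, 4 of 21 immune and cytokine receptors were higher at 145 d and 1 was lower, and of 12 uptake and adhesion receptors 6 were higher and 2 lower, beside 18.7% higher and 22.7% lower of all genes. Several genes that leukocytes and macrophages use were among those higher. FCER1G, the signalling chain of several Fc receptors, read 7.98, 8.55, 7.96 and 8.74 at 80 d, 9.22, 9.54, 9.62 and 9.81 at 145 d, and 9.35, 10.87, 9.85 and 10.26 in newborns. ITGB2, the beta 2 integrin chain of leukocytes, read 8.21, 8.95, 7.89 and 8.64, then 9.31, 9.44, 9.55 and 9.19, then 9.52, 10.18, 9.73 and 9.61. Both later groups lie above 80 d for both genes, with changes to 145 d of 1.24 for FCER1G (SE 0.25, limma adjusted p = 0.00043) and 0.95 for ITGB2 (SE 0.21, adjusted p = 0.00084). ITGAM, the integrin chain that pairs with ITGB2 on microglia and neutrophils, was higher at 145 d in cortex (0.35, adjusted p = 0.008) and hypothalamus (0.71, adjusted p = 0.00075). TLR2, which senses bacterial lipoproteins, was also higher in these regions (0.31 and 0.38). FCER1A, the IgE-binding chain, was at least 1.76-fold higher in hypothalamus at 145 d, where no 80 d array was well above background.

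Of 9 listed microglia and myeloid markers 3 were matched by symbol to array entries (CD14, CTSS and ITGAM, which is itself a receptor gene here). The log2 of their summed intensities ran from 9.42 to 10.51 at 80 d, 11.02 to 11.34 at 145 d and 11.09 to 13.46 in newborn cortex. In brainstem the same ranges were 11.21 to 11.48, 11.44 to 11.96 and 11.96 to 13.52, and in hypothalamus 11.39 to 11.72, 11.11 to 12.15 and 11.99 to 13.90. The sums moved upward in cortex, as did FCER1G, ITGB2 and ITGAM, and their part in those results was not tested. All 3 matched oligodendrocyte markers, of 9 listed, were higher at 145 d in every region, with sums of 9.70 to 10.09 at 80 d and 15.22 to 15.61 at 145 d in cortex and 13.75 to 14.29 and 17.43 to 17.89 in brainstem. Of the 5 matched astrocyte markers, of 9 listed, 5 were higher in cortex, 4 in brainstem and 3 in each other region. Their sums in cortex were 14.79 to 15.41 at 80 d and 16.37 to 16.99 at 145 d. None of the 10 listed neuron markers was matched on the array, and the part of any of these cell types in the receptor changes was not tested. Matching by symbol can miss a gene that the array reads. The study gives array measurements of CSF1R, a listed microglia marker, and MBP, a listed oligodendrocyte marker, and neither was matched here.

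Of the scavenger and adhesion receptors, both T19 entries were higher at 145 d in brainstem. They are sheep homologs of scavenger receptors of the WC1 family, first described on lymphocytes. T19 (S76323) in brainstem read 7.23, 7.44, 7.14 and 7.15 at 80 d, 9.09, 8.75, 9.65 and 9.09 at 145 d, and 9.28, 9.01, 8.95 and 8.88 in newborns. T19 (NP13107344) read 6.73, 6.95, 6.68 and 6.83, then 8.18, 7.60, 8.62 and 8.04, then 8.32, 8.36, 7.77 and 8.05. For both entries every later array lies above every 80 d array, with changes to 145 d of 1.90 (SE 0.21, 3.74-fold, limma adjusted p = 4.9e-07) and 1.32 (SE 0.23, adjusted p = 0.00013). In cortex the changes were smaller, 0.49 (adjusted p = 0.0008) for the first entry and at least 1.23-fold for the second. The change differed between regions for both (interaction adjusted p = 5.8e-07 and 0.00012). Of 7 listed T cell markers 4 were matched by symbol and 3 were tested in brainstem, where their summed level ran from 8.49 to 8.59 at 80 d, 8.89 to 8.98 at 145 d and 9.12 to 10.29 in newborns, and their part was not tested.

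RPSA, the laminin receptor, is also a protein of the small ribosomal subunit. In cortex it read 15.15, 15.75, 15.35 and 15.50 at 80 d, 13.94, 13.62, 13.39 and 13.56 at 145 d, and 13.96, 14.19, 14.21 and 13.71 in newborns. Both later groups lie below that of 80 d, and the fall to 145 d was 3.51-fold (-1.81, SE 0.19, limma adjusted p = 1.6e-07). In brainstem the change was -0.96 (SE 0.17, adjusted p = 0.00013). The integrin chains ITGB1 in cortex (0.41) and ITGAV in brainstem (0.49) were higher at 145 d.

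Among the peptide hormone receptors, OXTR, the oxytocin receptor, fell in hypothalamus from 7.40, 7.65, 7.18 and 7.15 at 80 d to 6.83, 6.82, 6.60 and 6.80 at 145 d and 6.62, 6.45, 6.69 and 6.57 in newborns, a change to 145 d of -0.58 (SE 0.12, limma adjusted p = 0.0023) without overlap. AGTR1, the type 1 angiotensin II receptor, was higher in newborn hypothalamus than at 80 d, with 7.47, 8.16, 7.28 and 6.32 at 80 d and 8.97, 8.32, 8.43 and 8.42 in newborns. That change was 1.23 (SE 0.36, adjusted p = 0.02), the change to 145 d was 1.0 (adjusted p = 0.069), and the F test across ages (adjusted p = 0.045) was lost in 18 of 24 fits that left out 1 array.

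ETBR, the endothelin B receptor, fell in brainstem from 8.69, 8.50, 8.84 and 8.82 at 80 d to 7.87, 7.67, 7.58 and 8.07 at 145 d (-0.92, SE 0.16, limma adjusted p = 0.00011) and in cortex by -0.45 (adjusted p = 0.0033). Its ligand gene EDN1 was higher at 145 d in cortex (0.98), brainstem (0.73) and hypothalamus (0.66). OPRK1, the kappa opioid receptor, rose in cortex from 7.60, 7.90, 7.73 and 7.98 to 8.32, 8.14, 8.48 and 8.48 (0.55, SE 0.11, adjusted p = 0.00037) and was higher in brainstem (0.37, adjusted p = 0.039). CRHR1, the corticotropin releasing factor receptor, was higher in cortex (0.25), and HCRTR2 and TSHR were lower there (both -0.23). BRS3, a bombesin-like receptor, was lower at 145 d in hippocampus, with 7.54, 7.51, 7.41 and 8.11 at 80 d and 7.0, 6.99, 6.96 and 6.58 at 145 d (-0.76, SE 0.20, adjusted p = 0.033), although it did not pass the F test.

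RTP4, a chaperone that carries chemosensory and opioid receptors to the membrane, rose in brainstem from 9.51, 9.28, 9.73 and 9.90 at 80 d to 10.77, 11.84, 11.20 and 11.39 at 145 d (1.70, SE 0.44, limma adjusted p = 0.004) without overlap, and its F test was lost without 80 d replicate 1, 2 or 3 (adjusted p up to 0.091). Its newborn arrays spread from 9.67 to 12.64, across both earlier ranges. In cortex it was higher by 1.07 (adjusted p = 0.044). An entry matched in part to a bovine taste receptor type 2 fell in cortex, from 13.25, 13.28, 13.25 and 13.40 at 80 d to 12.35, 11.97, 12.81 and 13.10 at 145 d (-0.74, SE 0.27, adjusted p = 0.034) without overlap.

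The genes that supply or act on the receptors were taken from lists. Of 68 listed ligands and binding proteins 40 were matched by symbol to array entries. At 145 d, 9 were higher and 5 lower of 34 tested in cortex, 7 higher and 14 lower of 35 in brainstem, 1 higher of 35 in hippocampus and 2 higher and 5 lower of 36 in hypothalamus. Over all genes, 18.7% were higher and 22.7% lower in cortex, 17% and 20.5% in brainstem, 2.11% and 2.42% in hippocampus, and 5.68% and 8.51% in hypothalamus. SST, which encodes somatostatin, the ligand of SSTR2, was higher in cortex (1.48) and lower in brainstem (-1.90), where SSTR2 was lower too (-0.60, limma adjusted p = 0.017). NPY followed the same directions (0.72 and -1.09), and its receptor NPY2R was at least 1.14-fold higher in cortex and did not pass in brainstem (adjusted p = 0.21), where no 145 d array was well above background. NPY1R, another receptor for neuropeptide Y, passed in no region and gave -0.14 in cortex (adjusted p = 0.43). Of 10 matched receptor signalling genes, 2 were higher and 2 lower in cortex, 5 lower in brainstem, 1 lower in hippocampus and 2 lower in hypothalamus. The entry counted there as STAT5A is named KITLG on the array and is also counted among the ligands. Which of these genes it reads was not tested. Of 12 matched hormone metabolism genes, 3 were higher and 1 lower in cortex, 4 lower in brainstem, 1 each way in hippocampus and none in hypothalamus. Of 6 genes of transmitter synthesis and uptake, 2 were higher in cortex, 1 was higher and 1 lower in brainstem, and 1 was higher in hippocampus and in hypothalamus.

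Across birth, from 145 d to 1 d after, few receptor genes changed. In cortex none of the 131 passed in either direction (all genes 0.163% higher and 0.0853% lower), with 10 at an unadjusted limma p under 0.05. In brainstem 1 was higher (all genes 3.67%) and 5 were lower (all genes 1.22%). In hippocampus none passed in limma's test (all genes 0.00788% higher and 0% lower), with 2 at an unadjusted p under 0.05. In hypothalamus 2 were higher (all genes 1.41%) and 2 lower (all genes 1.06%). The brainstem count of 6 was 8 with the dim area left out and 4 without the array, and over the fits leaving out 1 array it ran from 1, without the 145 d array of replicate 4, to 12, without the newborn array of replicate 1. It was 2 without the 145 d array of replicate 2.

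The 5 genes lower after birth in brainstem were the mineralocorticoid receptor, GRIA3, NR3C1, GRM5 and GRIA2, described above, which are 2 corticosteroid receptors and 3 glutamate receptors. Without newborn replicate 4, GRIA3 (limma adjusted p = 0.056) and GRIA2 (adjusted p = 0.072) did not pass, while the mineralocorticoid receptor (-0.99, adjusted p = 0.014), NR3C1 (-0.43, adjusted p = 0.013) and GRM5 (-0.59, adjusted p = 0.0085) did. GRIA3 was also lost without 145 d replicate 2, 3 or 4, GRM5 without 145 d replicate 2 or 4, and GRIA2 without 145 d replicate 1, 2 or 4 or newborn replicate 2. The gene that rose was ITGAM, from 6.74, 6.71, 6.74 and 6.82 to 6.87, 7.43, 6.91 and 7.48, a change of 0.42 (SE 0.11, adjusted p = 0.039, and 0.089 without newborn replicate 4). The newborn arrays lie above all of 145 d but close to them on 2 arrays, and the call was lost in 6 of 24 fits that left out 1 array.

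In hypothalamus, besides the EP1 receptor, the other receptor gene lower after birth was an entry matched in part to CD86, a costimulatory protein of antigen-presenting cells, from 7.05, 6.83, 6.73 and 6.70 to 6.22, 6.55, 6.53 and 6.52 (-0.37, SE 0.10, limma adjusted p = 0.049). Of the genes that rose, TNFRSF1A, a receptor for tumor necrosis factor, went from 6.71, 7.05, 6.88 and 6.83 to 7.41, 7.67, 7.13 and 7.23 (0.49, SE 0.13, adjusted p = 0.046). The other, TLR7, which senses single-stranded RNA, went from 6.97, 6.80, 6.90 and 6.92 to 7.06, 7.62, 7.36 and 7.11 (0.39, SE 0.10, adjusted p = 0.048). In each of these 3 the 145 d and newborn arrays did not overlap, but the call was lost in 23 of 24 fits that left out 1 array for CD86, in 13 for TNFRSF1A and in 19 for TLR7. TLR3, which senses double-stranded RNA, was higher in newborns than at 80 d (0.96, SE 0.22, adjusted p = 0.004), from 7.10, 8.14, 7.89 and 7.58 to 8.58, 9.34, 8.42 and 8.23, and its F test across ages (adjusted p = 0.04) was lost in 16 of 24 such fits.

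A single fit of all arrays asked whether the regions differed in their change across birth. No receptor gene passed limma's interaction test (all genes 0.0749%), with 10 of 134 at an unadjusted p under 0.05. A fall seen in brainstem and not in another region is therefore not shown to differ between them.

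**Figure D4:**
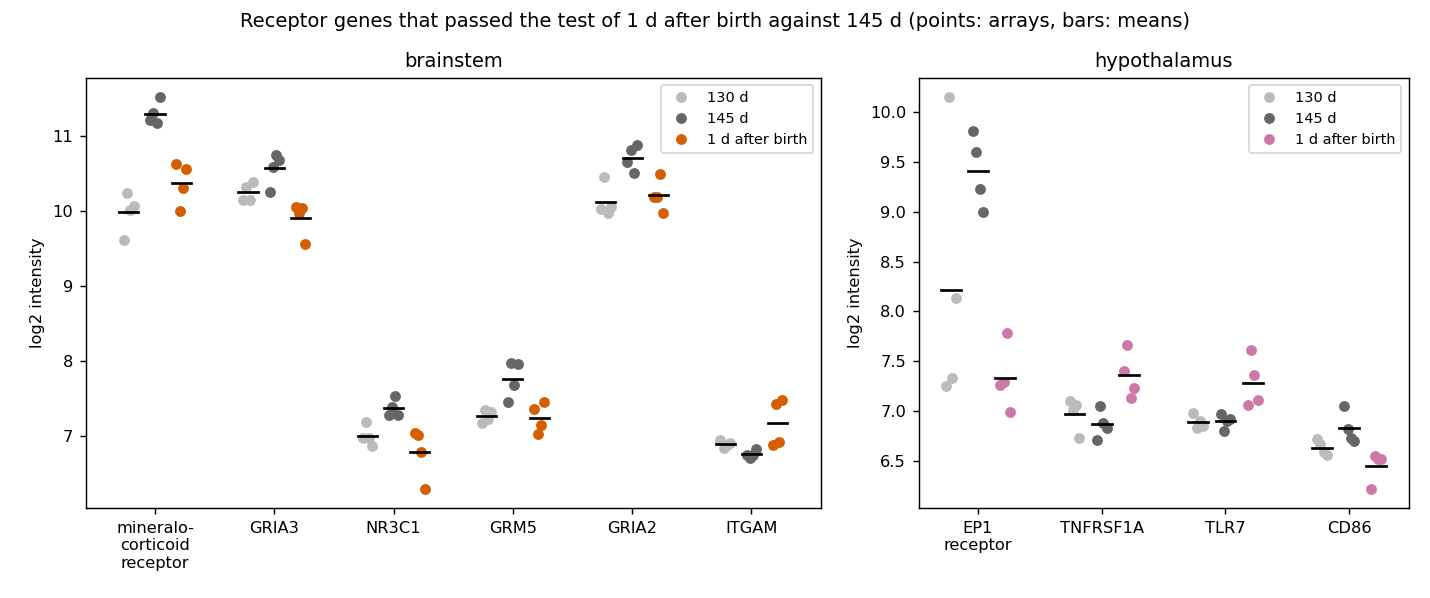
Log2 intensity on each array at 130 d, 145 d and 1 d after birth for the receptor genes that passed limma's test across birth, 6 in brainstem and 4 in hypothalamus. The mineralocorticoid receptor lies from 11.17 to 11.52 at 145 d and from 9.996 to 10.63 in newborns, and the EP1 receptor spans 7.25 to 10.15 at 130 d already.

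The change from 80 d to 145 d did differ between regions for 17 of 134 receptor genes (12.7%), beside 10.8% of all genes tested. By role, 5 were transmitter and local mediator receptors (PTGFR, MGLUR3, NR1, GRIA3 and ADRB1) and 5 were uptake and adhesion receptors (both T19 entries, ITGAM, ITGB2 and IGF-IIR). None of the 14 genes grouped as nuclear hormone receptors passed, so the larger brainstem rises of the mineralocorticoid receptor and NR3C1 are not shown to differ from those elsewhere. FGFR3, IGF-IIR and NR1 were each called higher in cortex and lower in brainstem, and PTGFR higher in hypothalamus and lower in cortex and hippocampus. These 4 were the only receptor genes called in opposite directions in different regions.

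Levels, averaged over the 6 ages, differed between regions for 119 of 134 receptor genes (88.8%), beside 84.6% of all genes. The highest mean was in hippocampus for 52 of the 119 (43.7%, beside 28.1% of all genes that differed), in hypothalamus for 32 (26.9%, beside 23.3%), in cortex for 21 (17.6%, beside 27.4%) and in brainstem for 14 (11.8%, beside 21.1%). The lowest was in cortex for 49 (41.2%, beside 30.3%), in brainstem for 31 (26.1%, beside 30.5%), in hypothalamus for 24 (20.2%, beside 18.6%) and in hippocampus for 15 (12.6%, beside 20.6%). No test compared these shares. With slide as a random block the count was 80.

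SSTR2, a somatostatin receptor coupled to inhibitory G proteins, had the widest range, with means of 11.31 in cortex, 9.85 in hippocampus, 8.45 in brainstem and 8.24 in hypothalamus, an 8.41-fold difference between the ends (limma adjusted p = 1.8e-33). Cortex lay above hippocampus without overlap at 5 of 6 ages, and hippocampus above brainstem at 5 of 6. Brainstem and hypothalamus were apart at only 1 age. SST1, another somatostatin receptor, had the same order with a narrower range, at 9.15, 8.48, 7.95 and 7.74 (adjusted p = 8.9e-22), and its neighbours did not overlap at 2, 2 and 1 of 6 ages. SSTR2 and SST1 were thus highest in cortex and lowest in hypothalamus. SSTR5, a further member, was not, with means of 8.07 in hippocampus, 7.99 in brainstem, 7.73 in hypothalamus and 7.59 in cortex (adjusted p = 1.4e-05) and neighbours that overlapped at most ages.

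The mineralocorticoid receptor was highest in hippocampus (12.21), and its means in hypothalamus (10.37), brainstem (10.09) and cortex (10.005) lay close together (4.63-fold from highest to lowest, limma adjusted p = 1.2e-15). Hippocampus and hypothalamus did not overlap at 3 of 6 ages, while hypothalamus and brainstem overlapped at all 6. TRHR, the receptor for thyrotropin-releasing hormone, was likewise highest in hippocampus (8.12), then hypothalamus (7.25), brainstem (7.08) and cortex (6.72), without overlap of hippocampus and hypothalamus at 3 ages (adjusted p = 7.4e-19). ESR1 was highest in hypothalamus (8.91), followed by hippocampus (8.06), cortex (7.49) and brainstem (7.26), with neighbours apart at 1, 2 and 1 ages (adjusted p = 9.8e-14). The EP1 receptor had the same top regions, hypothalamus (8.69) and hippocampus (7.82), then brainstem (7.27) and cortex (6.91) (adjusted p = 4.4e-13). Of the other nuclear receptors, PPARG was highest in hippocampus (8.36, range 0.70 over the regions) and PGR in hypothalamus (7.11, range 0.58). All 14 genes grouped as nuclear receptors passed the region test. The narrowest range, 0.14, was that of THRA, which passed the filter on dim signals in only 2 regions.

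The glutamate receptor genes GRIA2 and MGLUR3 were lowest in brainstem. GRIA2 had nearly equal means in hippocampus (12.29), hypothalamus (12.24) and cortex (12.20) and was lower in brainstem (10.53, limma adjusted p = 9.5e-20). The highest brainstem array read 11.13 and the lowest cortex array 11.39, so these regions did not overlap at any age. MGLUR3 was highest in cortex (8.97), then hippocampus (7.86), hypothalamus (7.74) and brainstem (6.94, adjusted p = 2e-31). Brainstem lay below hypothalamus without overlap at all 6 ages. GRIA3 was highest in hippocampus (11.38), then cortex (10.40), hypothalamus (10.01) and brainstem (10.005), with neighbours apart at 1 age each (adjusted p = 2.7e-12). T19 (S76323) was the only one of these 10 with its highest mean in brainstem (8.38), above hypothalamus (7.40), cortex (7.21) and hippocampus (7.08), and apart from hypothalamus at 4 ages (adjusted p = 1.2e-25).

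**Figure D5:**
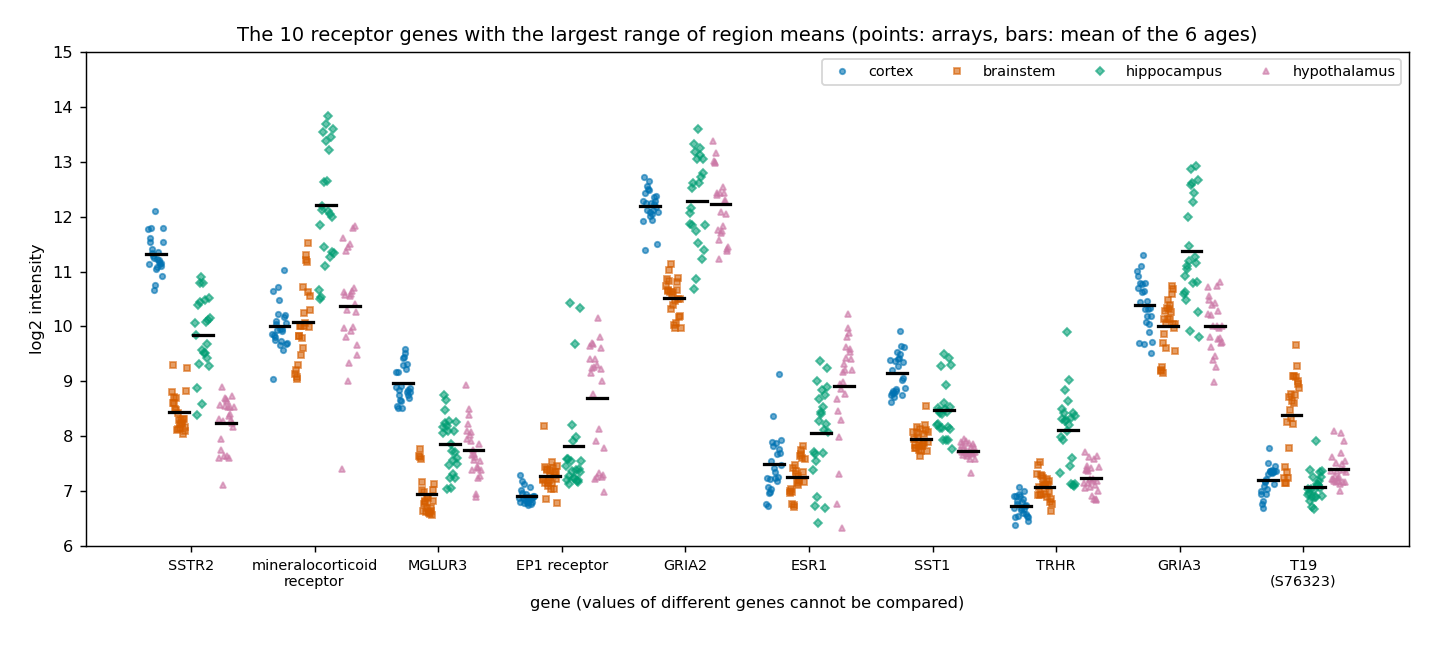
Log2 intensity on each array (points) and the mean of the 6 ages (bars) in the 4 regions for the 10 receptor genes with the widest range of region means. SSTR2 spans means of 8.24 in hypothalamus to 11.31 in cortex, and every brainstem array of GRIA2 lies below every cortex array.

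Most genes with more than 1 probe have probes that share a run of bases, so that their agreement is no independent check. Among genes with several tested probes, changes from 80 d to newborns that ran in opposite directions and were more than 0.5 apart on the log2 scale occurred for 0 of 63 genes in cortex, 2 of 62 in brainstem (EDNRA and GLP1R), 4 of 60 in hippocampus and 1 of 61 in hypothalamus (OPRK1), and none of these genes had passed the F test in that region. Of the genes whose probes share no run of 15 bases or more, this was so for 0 of 18 in cortex, 2 of 19 in brainstem, 1 of 17 in hippocampus and 0 of 18 in hypothalamus.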

How the data were processed

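The deposited array files hold, per the file headers, the mean intensity and local background intensity of each spot as read by Feature Extraction 10.1.1.1. A table of log2 values for the whole series, normalized by the authors, served as an alternative. The background was removed with normexp (offset 50) and values were quantile normalized over 95 arrays in limma 3.58.1 (R 4.3.3). The methods name background correction and quantile normalization, and the offset was chosen here. Control spots and spots marked as outliers were left out, so that 1338 probes lacked a value on 1 or more arrays. A probe was kept in a region if 4 or more arrays read above 1.1 times the 95th percentile of 77 negative controls. Probes were averaged by gene name. Signal over background, not read depth, sets the precision, and the number of arrays limits it. A level not well above background on any array of a group is a bound, written as at least N-fold.

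One fit per region held all ages (lmFit, eBayes), with Benjamini-Hochberg adjustment over all genes and a threshold of 0.05. The moderated F test stands in for the BETR test of the study's methods. The regions and interactions were tested in one fit of all arrays. These fits were tested on simulated data. Of the receptor genes, 103 were named through the RefSeq table of ARS-UI_Ramb_v3.0, of which 59 matched on accession, 9 on gene number, 31 on symbol and 4 on synonym, and 39 keep the name in the files. Receptor genes, lists and tests were chosen with earlier results of these data known. Named with values were, in each region, up to 4 rises and 4 falls that passed the F test with arrays apart from 80 d, taken by the change from 80 d to newborns, all that passed across birth (up to 6), the 10 with the widest region range, all nuclear receptors and those never above background. The values of 1 nuclear receptor are not reported here. Other genes are named as examples of their role and were chosen after their values were seen. The alternatives tried were an offset of 16, processed signals divided by their 75th percentile, the table of the whole series, normalization in each region alone, all probes unfiltered, the brightest probe, 2 other readings of the membership rule, replicate or slide as a block, trend and robust settings, the dim area left out and each array left out in turn. Tables were handled with Python 3.11.15 and pandas 2.3.3, and figures drawn with matplotlib 3.10.9.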

Additional observations from a re-analysis of the deposited data

Results flagged for a closer look

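Among 101 groups of 4 arrays of the named receptor genes and comparisons, 9 held an array that lay apart from the other 3 by Dixon's test, and chance marks about 1 in 20 groups. In cortex it was newborn replicate 1 for MET, the highest at 8.92. In brainstem these were 80 d replicate 4 for NR1, the lowest at 7.82, 80 d replicate 2 for ACVR2A, the highest at 8.30, newborn replicate 4 for GRIA3, the lowest at 9.56, and 80 d replicate 3 for ITGAM, the lowest at 6.69. In hypothalamus newborn replicate 1 lay apart for AGTR1 (highest, 8.97), GRIA2 (highest, 12.06) and CD86 (lowest, 6.22), and 145 d replicate 2 for ESR1 (TC11510) (lowest, 8.55).

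The change from 80 d to 145 d differed between the regions in limma's interaction test for 17 receptor genes. The adjusted p was 1.4e-09 for PTGFR, 5.8e-07 for T19 (S76323), 0.00012 for T19 (NP13107344), 0.00037 for FCER1A, 0.00048 for MET and 0.00055 for FGFR3. It was 0.0023 for ITGAM, 0.0025 for MGLUR3, 0.0035 for NR1, 0.0043 for BRS3 and 0.0078 for TIE2. It was 0.011 for IGF-IIR, IRAK4 and AGTR1, 0.014 for GRIA3, 0.028 for ITGB2 and 0.035 for ADRB1.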

How the results depend on the processing

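None of the counts and of the genes named by the rule, which were the results recomputed, reversed a call under any alternative, and genes named as examples of a role were not recomputed. For the genes named by rule, 918 values under other settings kept their direction and side of the threshold, 10 gained the threshold, 21 lost it and 6 that had not passed changed sign or size. Processed signals gave changes a median of 1.57 times as large over 35 named changes, so fold sizes depend on the background treatment. In hypothalamus the F test of GRIA2 was lost with the series table, that of ESR1 with an offset of 16 and the processed signal (adjusted p = 0.057 and 0.11), that of AGTR1 in 3 settings and that of TLR3 in 2. The change of PGR to 145 d was lost in cortex with the series table (adjusted p = 0.1) and in hypothalamus with the processed signal (adjusted p = 0.053), and that of AHR in cortex with the series table (adjusted p = 0.067). Of the changes across birth, GRIA3, GRIA2 and ITGAM in brainstem were lost with the processed signal, GRM5 and ITGAM there and TLR7 in hypothalamus with the brightest probe, ITGAM and TLR7 with the replicate block, TNFRSF1A with the series table and CD86 with normalization in each region. The cause was not tested. The counts that follow have no share of all genes beside them, since that share was computed in the main setting only. With the processed signal, 48 receptor genes changed with age in brainstem, 3 in hippocampus and 25 in hypothalamus, 4 changed from 80 d to 145 d in hippocampus, 1 changed across birth in cortex and 29 had a fetal change that differed between regions. With slide as a fixed term in the fits per region, 2 changed with age in hippocampus and 26 in hypothalamus, 4 changed from 80 d to 145 d in hippocampus and 7 changed across birth in hypothalamus. With slide as a random block in the fit of all arrays, 1 had a change across birth that differed between regions. The brightest probe left 1 gene changed from 80 d to 145 d in hippocampus, and the series table left 1 changed across birth in hypothalamus. Leaving out 1 array gave 47 to 59, 25 to 43, 1 to 2 and 10 to 21 genes changed with age in cortex, brainstem, hippocampus and hypothalamus, 42 to 50, 23 to 39, 1 to 3 and 8 to 16 changed from 80 d to 145 d, and 0 to 0, 1 to 12, 0 to 1 and 0 to 4 changed across birth. It gave 114 to 123 differing between regions, 15 to 21 with a fetal change and 0 to 1 with a change across birth that differed between regions. In hypothalamus the count across birth was 0 without any 1 of 5 arrays, 145 d replicates 1, 3 and 4 and newborn replicates 2 and 4. Within a region, same-numbered arrays of different ages did not vary together (mean r from 0.0514 to 0.179 and lowest r from -0.573 to -0.208 over the regions). Between regions of one age, every same-numbered r was above 0.1 for some pairs of regions. The lowest r of such a pair ran from 0.117 (brainstem and hypothalamus at 80 d) to 0.26 (cortex and brainstem at 130 d). For other pairs of regions this was not so (lowest -0.346), and the numbers were not taken as pairs. With the replicate block, 62, 31, 1 and 21 receptor genes changed with age, 51, 34, 2 and 16 from 80 d to 145 d and 0, 5, 0 and 3 across birth, and with age and number as a random block the count of members differing between regions was 121, while 18 had a fetal change and 0 a change across birth that differed between regions.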
